A study of Homo sapiens with 18 samples.

Results

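The 10 genes described here encode inhibitors of cyclin-dependent kinases (CDKN2A, CDKN2B, CDKN1A, CDKN1B and CDKN1C), G1 cyclins (CCND2, CCND3 and CCNE1), the G1 kinase CDK6 and the retinoblastoma protein RB1. Chromatin accessibility was followed at every region of the deposited table that overlapped any of these genes, from 20 kb before to 20 kb after its annotated body on GRCh37 (hg19). This gave 70 regions of 115087 in all, with 18 at CDK6, 16 at RB1, 10 at CCND3, 6 at CDKN1A, 5 each at CDKN1B and CCNE1, 4 at CCND2 and 3 at CDKN1C. CDKN2A and CDKN2B lie side by side and share the same 3 regions. Some regions of the other windows lay within 1 kb of a start of another gene and not of the member. These were 3 at CDKN1B, 2 each at CDKN1C, CCND2, CCND3 and RB1, and 1 at CDK6, with 0 at CDKN1A and CCNE1. Counts and sums over a window include them. The study measured accessibility by ATAC-seq, in which Tn5 transposase cuts open DNA, in SCC1, SCC6 and SCC25, established head and neck squamous cell carcinoma lines that it chose for their sensitivity to cetuximab. Cells received cetuximab, an antibody that blocks the epidermal growth factor receptor, at 100 nM, or PBS as the untreated control, for 5 days. Each of the 6 groups had 3 libraries except untreated SCC1, where replicates 1 and 3 were used and replicate 2 was not analysed here. Nothing in the labels says that replicates came from separate cultures, so p-values measure only the spread between these libraries.

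In G1, the D-type cyclins bind and activate CDK4 and CDK6, cyclin E activates CDK2, and both kinase complexes phosphorylate RB1, which releases E2F transcription factors and allows entry into S phase. The INK4 inhibitors p16 (CDKN2A) and p15 (CDKN2B) bind CDK4 and CDK6, while the CIP/KIP inhibitors p21 (CDKN1A), p27 (CDKN1B) and p57 (CDKN1C) act on cyclin-bound CDK complexes. Loss of the CDKN2A locus at 9p21 and gain of cyclin genes are well known in squamous carcinomas of the head and neck.

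Values below are signal, the reads in a region scaled per library by the authors, with regions of 0 reads set to 1 read. Reads in the regions ranged from 2194851 to 15017130 per library, and SCC1 was the shallowest line (2194851 to 4171650). Changes are log2 differences of signal + 1 with their standard errors (SE) from limma, and adjusted p-values are Benjamini-Hochberg values over all tested regions, with a call at 0.05. In a bulk library, fewer cells with an open region and a smaller opening in each cell cannot be told apart, and neither can a change of accessibility and a change of DNA copy number.

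The clearest difference between the lines was at the INK4 genes on 9p21. The 3 regions at CDKN2A (chr9:21967751-21995300) and CDKN2B (chr9:22002902-22009304) had no signal above the floor in SCC6, with or without cetuximab, and were open in SCC1 and SCC25. At the CDKN2B promoter region (chr9:22008709-22009614, overlapping exon 1), all 6 SCC6 libraries held 1 read, the floor of the table, while SCC1 libraries held 106 to 249 reads and SCC25 libraries 46 to 379. The strongest CDKN2A promoter region (chr9:21994285-21994922), at the alternative first exon and 19.429 kb beyond the main p16 transcript, also held 1 read in each SCC6 library, against 67 to 134 in SCC1 and 50 to 214 in SCC25. No region lay between chr9:21905022 and chr9:21994285, so the start of the main p16 transcript was not covered in any line. Below, the CDKN2A promoter region is the one at the alternative first exon. The third region (chr9:21995299-21995472) held 1 read in each SCC6 library, 13 to 36 in SCC1 and 11 to 73 in SCC25. No SCC6 library overlapped any other library at these 3 regions.

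Since the SCC6 values were all at the floor, the difference is given as a bound against 3 reads per library. Untreated SCC1 was at least 45.4-fold higher than untreated SCC6 at the CDKN2A promoter region and at least 95.3-fold higher at the CDKN2B promoter region. Untreated SCC25 was at least 23.6-fold and at least 46.8-fold higher at the same regions. Peak calls made per library by the authors also set SCC6 apart, but depended on the threshold. The CDKN2B promoter region held a peak in 5 of 5 SCC1 libraries, 5 of 6 SCC25 libraries and 0 of 6 SCC6 libraries, and the CDKN2A promoter region in 4 of 5, 3 of 6 and 0 of 6. At a -log10 q of at least 5, 0 SCC1 libraries kept a peak at either region, and 1 SCC25 library kept a CDKN2A peak. Where a peak covered most of the region, SCC1 and SCC25 had 2 and 2 libraries at CDKN2B and 0 and 1 at CDKN2A.

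**Figure D1:**
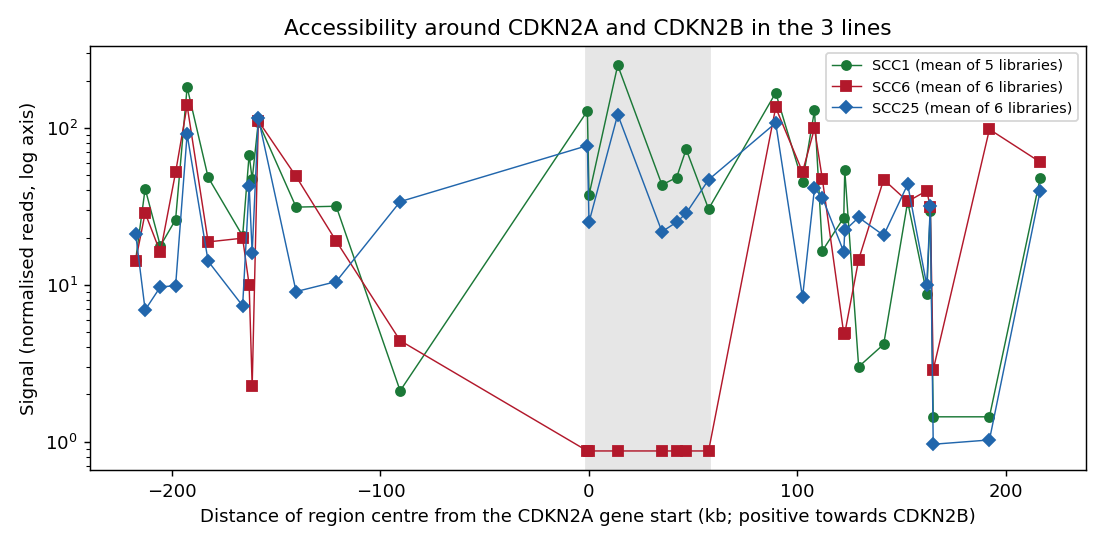
Signal (normalised reads, log axis) of each region against its distance from the CDKN2A start in kb, as the mean over the libraries of each line. SCC6 values are at the floor over 7 neighbouring regions, from the CDKN2A start through CDKN2B and beyond, and are above it on both sides.

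The absence of signal ended on both sides of the locus. The 3 member regions were part of a run of 7 neighbouring regions, chr9:21994285-22052959 (58.7 kb), that were at the floor in all 6 SCC6 libraries and above 3 reads in every SCC1 and SCC25 library. On the near side the promoter region of MTAP, a methionine salvage enzyme often lost together with CDKN2A, was open in SCC6 with 103 to 386 reads and a peak in 6 of 6 libraries. On the far side, the region starting at 22084529 held 77 to 387 reads in SCC6. A region between MTAP and CDKN2A, starting at 21904477, was low in SCC6 (1 to 26 reads) but also in SCC1 (1 to 4 reads). The promoter regions of DMRTA1, KLHL9, MLLT3, FOCAD and ELAVL2, further along 9p21, all had a peak in 6 of 6 SCC6 libraries.

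Such runs were rare in the table. In SCC6, 135 regions (0.117% of all) were at the floor in every library and above 3 reads in every other library, and they fell into 100 runs, of which 2 had 7 or more regions. The other long run was on chromosome X, with 8 regions. SCC25 had 1 run of 7, on chromosome 4 (chr4:187597647-187657360), and SCC1 had no run of 2 or more. Lack of a peak alone did not imply the floor, since of 22492 regions with no peak in SCC6 only 5.99% were at 1 read in all 6 libraries. Copy number was not measured, so lost DNA and closed DNA cannot be told apart.

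Neither the CDKN2B promoter region nor the CDKN2A region at the alternative first exon was called with cetuximab in SCC1 or SCC25. CDKN2B signal in SCC1 was 324 and 241 untreated and 222, 206 and 260 with cetuximab, and in SCC25 it was 143, 144 and 130 untreated and 108, 123 and 81.5 with cetuximab. The groups did not overlap in SCC25 but the change of -0.43 ± 0.17 had an adjusted p of 0.254. CDKN2A changed by -0.12 ± 0.23 in SCC1 (adjusted p = 0.812) and by 0.28 ± 0.21 in SCC25 (adjusted p = 0.598). In SCC6 the regions fell under the filter on low signal and were not tested. Between the untreated lines with signal at the locus, SCC25 was lower than SCC1 at CDKN2B by 1.01 ± 0.28 on the log2 scale (adjusted p = 0.00697) and at CDKN2A by 0.95 ± 0.36 (adjusted p = 0.0371). The CDKN2B call was lost without untreated SCC1 replicate 1 (adjusted p = 0.116), and the CDKN2A call without any 1 of the 5 untreated libraries compared (adjusted p = 0.0623 to 0.219), with scaling on regions with no peak (-0.62, adjusted p = 0.137), with the GC trend removed (0.051), with a pseudocount of 0.5 (0.0539) and with the replicate number as a block (0.0751). Among 66 tested regions within 1 Mb of CDKN2B but outside its window, the median log2 difference of untreated SCC25 from SCC1 was -0.72, with 21.2% above 0, and that of untreated SCC6 from SCC1 was -0.59. The part of these surroundings in the promoter differences was not tested.

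CDKN1A (chr6:36644237-36655114) encodes p21, a CDK inhibitor known to rise in differentiating cells. Of its 6 regions, 1 was called higher after cetuximab in SCC1 and 2 in SCC6, with none called lower. Among all tested regions, 4.57% were called higher in SCC1 and 16.9% in SCC6. In SCC1 the intron 1 region chr6:36648098-36648369 rose from 53.3 and 61.4 to 102, 95.4 and 135, a change of 0.92 ± 0.27 (adjusted p = 0.011) with no overlap between groups. In SCC6 the region 9.027 kb upstream, chr6:36634782-36635210, rose from 65.2, 90.3 and 71.8 to 113, 133 and 121 (0.69 ± 0.17, adjusted p = 0.00172). A second intron 1 region, chr6:36650274-36650861, rose in SCC6 from 120, 93.0 and 120 to 153, 164 and 170 (0.56 ± 0.14, adjusted p = 0.00274). Treated and untreated libraries were fully separated at each of these regions. Such separation at called regions, here and below, is a description of regions picked by the test and not further support. The sequence of the upstream region is shown because it is the CDKN1A element with the larger rise in SCC6. Here and for the elements below, motif letters found on either strand are in capitals, for AP-1 (TGANTCA), for TEAD (GGAATG) and for RUNX (TGTGGT), and no matches overlap in the stretches shown. Among all regions long enough, 33.4% held the AP-1 letters in their central 300 bases, 23.2% the TEAD letters and 23.5% the RUNX letters. A match is a description of the letters and not a site of binding. The central 300 bases lie at chr6:36634846-36635145 on the plus strand and held none of these letters.
CDKN1A upstream element: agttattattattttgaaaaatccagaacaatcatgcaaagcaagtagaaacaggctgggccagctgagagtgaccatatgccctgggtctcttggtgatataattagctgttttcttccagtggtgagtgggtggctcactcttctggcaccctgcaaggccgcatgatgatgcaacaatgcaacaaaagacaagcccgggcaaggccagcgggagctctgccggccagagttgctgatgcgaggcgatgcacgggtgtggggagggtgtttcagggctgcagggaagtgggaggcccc

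The same CDKN1A regions did not pass the test in every line. The upstream region measured 98.9 and 90.4 in untreated SCC1 and 178, 121 and 127 with cetuximab (0.56 ± 0.24, adjusted p = 0.113). The intron 1 region at 36650274 measured 111 and 157 untreated and 190, 200 and 189 with cetuximab in SCC1 (0.55 ± 0.21, adjusted p = 0.0701). In both cases the treated SCC1 libraries lay above the untreated ones. In SCC25 the changes were 0.21 ± 0.20, 0.47 ± 0.26 and 0.17 ± 0.19 at the upstream region, the intron 1 region at 36648098 and the intron 1 region at 36650274, and none was called. The effect of cetuximab was not shown to differ between the lines at any of them, with adjusted p-values of the difference of 0.433, 0.666 and 0.488. The SCC1 call at 36648098 rested on few libraries, since without untreated replicate 1, untreated replicate 3 or cetuximab replicate 3 its adjusted p was 0.223, 0.0754 or 0.0928, and with all libraries and the GC trend removed it was 0.0571.

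The CDKN1A promoter region itself (chr6:36646302-36646591, exon 1) was not called in any line. In SCC1 it measured 84.6 and 62.5 untreated and 124, 87.6 and 155 with cetuximab (0.70 ± 0.26, adjusted p = 0.0526). In SCC6 it measured 99.1, 88.3 and 76.1 untreated and 80.8, 70.6 and 74.1 with cetuximab (-0.22 ± 0.18, adjusted p = 0.387), and these groups overlapped. Summed over the 6 CDKN1A regions, signal rose in SCC1 from 383 ± 14.8 (SD, n = 2) to 601 ± 60.7 (SD, n = 3) and in SCC6 from 347 ± 6.38 to 436 ± 15.4 (SD, n = 3 each). The sums changed by 0.65 ± 0.15 in SCC1 (adjusted p = 0.00652) and by 0.33 ± 0.09 in SCC6 (adjusted p = 0.00302), against 0.19 ± 0.12 in SCC25 (adjusted p = 0.521). Adjusted p-values of sums run over all gene windows that were built the same way. Without either untreated SCC1 library the SCC1 sum was no longer called (adjusted p = 0.129 or 0.0701). The SCC6 sum was not called with the libraries of all lines in 1 limma fit (adjusted p = 0.063).

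**Figure D2:**
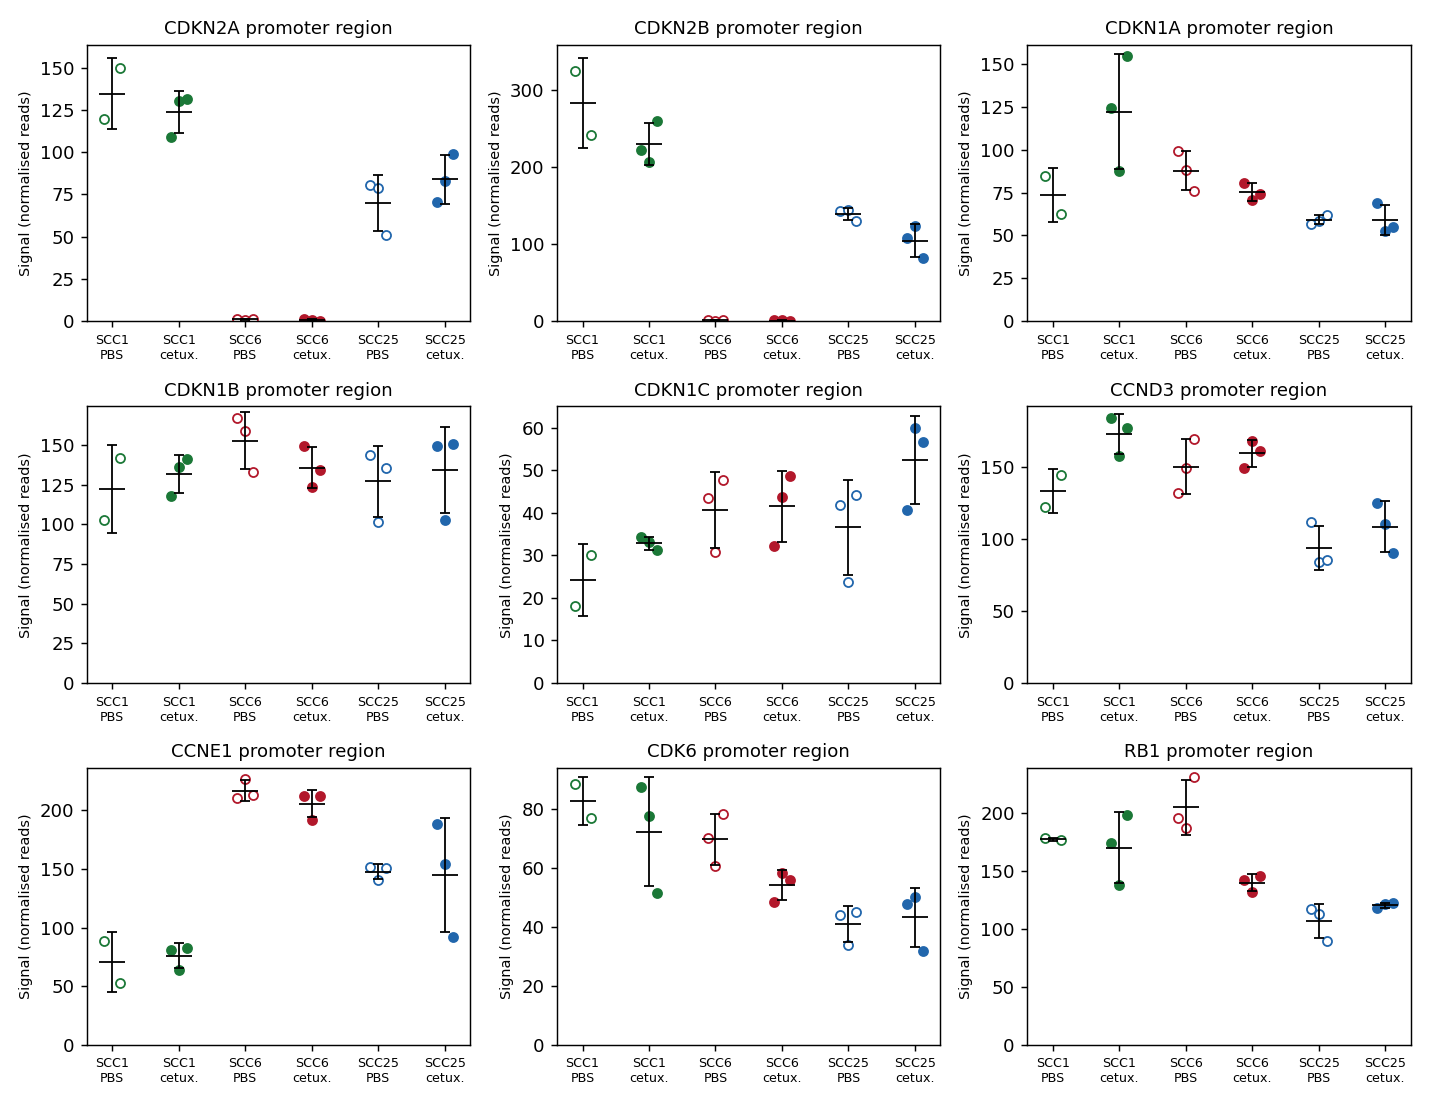
Signal (normalised reads, linear axis from 0) at the strongest promoter region of 9 genes, 1 point per library, for untreated (PBS) and cetuximab-treated SCC1, SCC6 and SCC25. SCC6 points lie at the floor for CDKN2A and CDKN2B, CCNE1 is lowest in SCC1, and RB1 is the 1 panel with a called change, a fall in treated SCC6.

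The other CIP/KIP genes had no called change. CDKN1B (p27, chr12:12838432-12875303) had no called region among 5 in any line, and 3 of the 5 lay at starts of other genes. Its promoter region (chr12:12869785-12870422, exon 1) averaged 122, 153 and 127 in untreated SCC1, SCC6 and SCC25 and 132, 136 and 134 with cetuximab, and no pair of untreated lines was called there. CDKN1C (p57, chr11:2904443-2907005) had the lowest untreated mean of the promoter regions above the floor in each line. The CDKN1C region at exon 1 (chr11:2906898-2907293) averaged 24.2, 40.7 and 36.6 untreated and 32.9, 41.5 and 52.5 with cetuximab, and held a peak in 0 of 5, 2 of 6 and 2 of 6 libraries. None of its 3 regions was called with cetuximab.

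The D-type cyclins differed in how they were covered. CCND2 (chr12:4378937-4414519) had no region within 1 kb of its start, and none of its 4 regions was called in SCC1 or SCC25. Its intron 3 region chr12:4395208-4395407 held at most 8 reads in any SCC1 or SCC25 library, and rose in SCC6 from 38.7, 54.9 and 45.7 to 114, 98.4 and 54.9 (0.88 ± 0.23, adjusted p = 0.00294). One treated library equalled the highest untreated library to 3 digits. The intron 3 region is 200 bases wide with 35% GC, and belongs to a class of narrow SCC6-only regions described below. CCND3 (chr6:41902672-42018095) had 2 regions of 9 tested that rose in SCC6, where 16.9% of all tested regions were called higher. The first, chr6:41934703-41935278, lies in the long isoforms, 25.157 kb upstream of the main transcript, and rose from 41.1, 53.5 and 55.5 to 110, 78.9 and 79.7 (0.82 ± 0.21, adjusted p = 0.00219). The second, chr6:42011597-42012154, rose from 61.6, 45.5 and 70.7 to 82.8, 100.3 and 84.6 (0.60 ± 0.20, adjusted p = 0.0211). The treated libraries lay above the untreated ones at both.

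At the main CCND3 promoter region (chr6:41909179-41909868, exon 1) the untreated means were 133, 150 and 93.6 in SCC1, SCC6 and SCC25, and 173, 159 and 109 with cetuximab, with no call. Untreated SCC25 was lower than SCC6 by 0.68 ± 0.15 (adjusted p = 9.92e-04) and than SCC1 by 0.51 ± 0.17 (adjusted p = 0.0208), while SCC6 and SCC1 did not differ beyond their spread (0.17 ± 0.17, adjusted p = 0.409). Summed over 10 regions, CCND3 signal rose in SCC6 by 0.29 ± 0.08 (adjusted p = 0.00213), a call lost without untreated replicate 1 (adjusted p = 0.0709) or, barely, cetuximab replicate 2. It was also lost with the libraries of all lines in 1 limma fit (adjusted p = 0.0516). The change of the sum was 0.37 ± 0.14 in SCC1 (adjusted p = 0.0622) and 0.18 ± 0.10 in SCC25 (adjusted p = 0.491).

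CCNE1 (cyclin E1, chr19:30302898-30315219) lost accessibility in SCC6 at 2 elements away from its promoter, 1 of them the largest fall of any called member region. In SCC6, 4 CCNE1 regions were tested, and 10.6% of all tested regions were called lower. The intron 6 region chr19:30310969-30311215 fell from 60.4, 61.6 and 29.4 to 5.05, 6.50 and 5.95, a change of -2.84 ± 0.37 (adjusted p = 3.1e-08). The region 6.838 kb downstream, chr19:30322057-30322449, fell from 101, 93.7 and 91.4 to 27.3, 34.4 and 30.1 (-1.62 ± 0.22, adjusted p = 1.33e-07). Treated and untreated libraries were far apart at both. The promoter region (chr19:30302350-30303023, exon 1) was not called in the same libraries, at 210, 227 and 213 untreated and 212, 192 and 213 with cetuximab (-0.08 ± 0.11, adjusted p = 0.633).

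In the other lines the CCNE1 intron 6 region was low in the untreated libraries too. It measured 6.51 and 6.70 in untreated and 3.81, 1.95 and 1.56 in treated SCC1, and 10.9, 4.33 and 13.6 in untreated and 1.41, 3.91 and 3.54 in treated SCC25. These are few reads, with 5 and 6 untreated and 3, 1 and 1 treated in SCC1, where 1 read is the floor. SCC25 held 29, 6 and 16 untreated and 1, 6 and 2 treated. The signal of treated libraries was below that of untreated ones in each line. The changes of -1.20 ± 0.85 and -1.37 ± 0.64 were not called (adjusted p = 0.408 and 0.353), and the effect was not shown to differ between lines (adjusted p = 0.0962). The downstream region, by contrast, was open in SCC25 and was not called there, at 67.5, 52.6 and 50.05 untreated and 60.5, 48.2 and 62.0 with cetuximab (0.01 ± 0.22, adjusted p = 0.992). There the effect of cetuximab differed between the lines (adjusted p = 0.019).

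The downstream CCNE1 element is printed because it carries a fall that differed between the lines, in lower case with motif letters in capitals as above. Its central 300 bases, chr19:30322103-30322402, held 1 TEAD and 1 RUNX match.
CCNE1 downstream element: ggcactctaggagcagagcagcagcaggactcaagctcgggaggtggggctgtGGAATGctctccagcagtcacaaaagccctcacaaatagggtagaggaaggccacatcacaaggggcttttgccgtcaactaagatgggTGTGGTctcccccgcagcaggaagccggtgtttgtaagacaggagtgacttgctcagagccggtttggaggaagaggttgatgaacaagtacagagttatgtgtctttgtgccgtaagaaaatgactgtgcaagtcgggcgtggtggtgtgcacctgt

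In the untreated libraries, CCNE1 was also the member with the highest signal in SCC6 and SCC25 relative to SCC1. Its promoter region measured 88.5 and 52.5 in SCC1, 210, 227 and 213 in SCC6 and 151, 141 and 151 in SCC25. The order was SCC6, SCC25, SCC1, and each step passed the test (SCC6 over SCC1 1.65 ± 0.18, adjusted p = 9.87e-07, SCC25 over SCC1 1.10 ± 0.18, adjusted p = 1.14e-04, SCC25 under SCC6 -0.55 ± 0.16, adjusted p = 0.00649). The difference was not confined to the gene. Among 45 tested regions within 1 Mb but outside the window, the median log2 difference was 1.08 for SCC6 and 1.24 for SCC25 against SCC1, with 84.4% and 91.1% of regions above 0. Over all regions the medians were -0.06 and -0.04. Copy number of the segment was not measured.

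**Figure D3:**
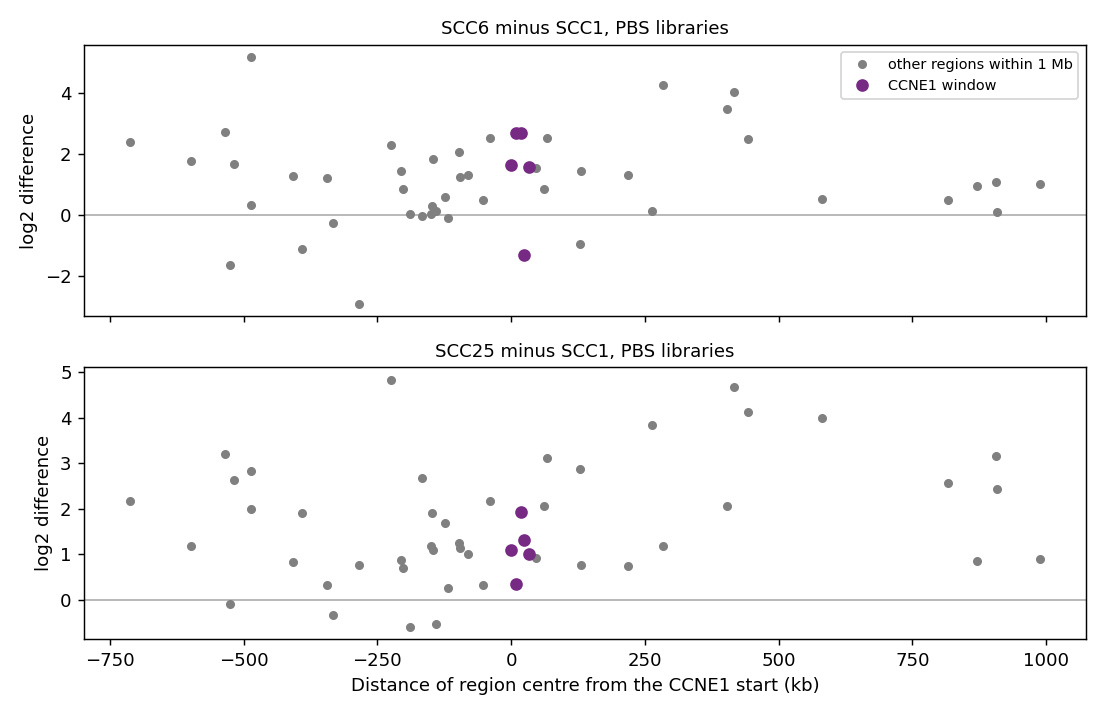
Log2 difference of untreated SCC6 (top) and untreated SCC25 (bottom) from untreated SCC1 for each tested region, against its distance from the CCNE1 start in kb. Most grey points (other regions within 1 Mb) and most purple points (CCNE1 window) lie above 0, with medians of 1.08 and 1.24 for the other regions.

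CDK6 (chr7:92234235-92465887), the kinase partner of the D-type cyclins, lost accessibility at intronic regions in SCC1. Of 18 tested CDK6 regions 3 were called lower there, against 6.56% of all tested regions. The intron 5 region chr7:92264331-92264649 fell from 130 and 69.2 to 25.4, 19.5 and 23.5 (-2.02 ± 0.36, adjusted p = 8.67e-06). The intron 3 region chr7:92376344-92376714 fell from 49.4 and 43.5 to 12.7, 7.79 and 12.5 (-2.01 ± 0.52, adjusted p = 0.00308), and a neighbouring intron 3 region, chr7:92381531-92382171, from 142 and 119 to 81.2, 77.9 and 64.2 (-0.81 ± 0.26, adjusted p = 0.0242). The groups were separated at all 3. With 2 untreated libraries these calls are fragile: without untreated SCC1 replicate 1 the adjusted p-values were 0.104, 0.177 and 0.382, while the changes kept their sign. The intron 3 calls were also lost without untreated replicate 3 (adjusted p = 0.0864 and 0.129), and the second of them without cetuximab replicate 3 (0.0864), centred on the median of all regions (0.105), with no filter on low signal (0.0535) and with DESeq2 (0.11).

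The effect on CDK6 differed between the lines at the first pair of regions (adjusted p of the difference 0.00779 and 0.0292). In SCC6 the intron 5 region measured 38.7, 44.2 and 44.6 untreated and 16.2, 40.8 and 41.3 with cetuximab (-0.48 ± 0.29, adjusted p = 0.213), and in SCC25 36.9, 40.4 and 33.1 untreated and 33.7, 33.9 and 53.1 with cetuximab (0.10 ± 0.26, adjusted p = 0.909). The groups overlapped in both lines. At the intron 3 region SCC6 was low with and without cetuximab, at 9.67, 18.1 and 7.61 untreated and 14.1, 9.28 and 12.9 treated. SCC25 there measured 45.6, 62.7 and 57.7 untreated and 21.1, 39.7 and 35.4 with cetuximab (-0.80 ± 0.26, adjusted p = 0.178), a separation in the same direction as SCC1 that did not pass the test. In SCC6 another intron 3 region, chr7:92392936-92393533, fell from 158, 153 and 140 to 79.8, 108 and 109 (-0.62 ± 0.15, adjusted p = 0.00177). The central stretches of the SCC1 elements, chr7:92264340-92264639 with 1 AP-1 match and chr7:92376379-92376678 with 1 TEAD match on the other strand, are given for comparison with the CCNE1 element above.
CDK6 intron 5 element: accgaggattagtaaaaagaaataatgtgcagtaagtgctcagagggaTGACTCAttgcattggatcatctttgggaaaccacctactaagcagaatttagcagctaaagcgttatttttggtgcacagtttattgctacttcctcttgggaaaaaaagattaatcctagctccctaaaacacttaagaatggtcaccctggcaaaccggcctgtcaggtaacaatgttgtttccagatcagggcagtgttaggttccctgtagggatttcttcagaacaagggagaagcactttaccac
CDK6 intron 3 element: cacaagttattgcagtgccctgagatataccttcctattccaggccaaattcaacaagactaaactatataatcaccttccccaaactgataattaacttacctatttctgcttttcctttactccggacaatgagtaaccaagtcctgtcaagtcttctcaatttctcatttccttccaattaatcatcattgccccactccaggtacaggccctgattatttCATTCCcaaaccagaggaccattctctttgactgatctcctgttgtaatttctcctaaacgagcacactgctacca

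The CDK6 promoter region (chr7:92463158-92463478, intron 1) was not called in any line, with changes of -0.22 ± 0.28 in SCC1, -0.35 ± 0.21 in SCC6 and 0.06 ± 0.25 in SCC25. Summed over 18 regions, CDK6 signal fell in SCC1 by 0.41 ± 0.12 (adjusted p = 0.0207) and the call was lost without untreated replicate 1, untreated replicate 3 or cetuximab replicate 3 (adjusted p = 0.269, 0.152 and 0.0659). Untreated SCC1 had more CDK6 signal than either other line, by 0.56 ± 0.08 in each case on the log2 scale of the sum, while SCC25 and SCC6 did not differ beyond their spread (0.00 ± 0.07, adjusted p = 0.986). Among 57 tested regions within 1 Mb outside the window, the median difference from SCC1 was -0.37 in SCC6 and -0.63 in SCC25. Over all 86315 tested regions, 26299 were called lower and 26528 higher in SCC6 than in SCC1. For SCC25 against SCC1 these were 19927 and 24364. Of 16 tested CDK6 regions, 9 were lower in SCC6 than in SCC1 and 2 higher, and 10 were lower in SCC25 than in SCC1 and 3 higher. The exceptions included intron 5 region chr7:92274999-92275333, open in untreated SCC25 (68.2, 68.5 and 78.9), lower in SCC1 (23.4 and 23.4) and near the floor in SCC6 (1.21, 4.01 and 6.53).

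**Figure D4:**
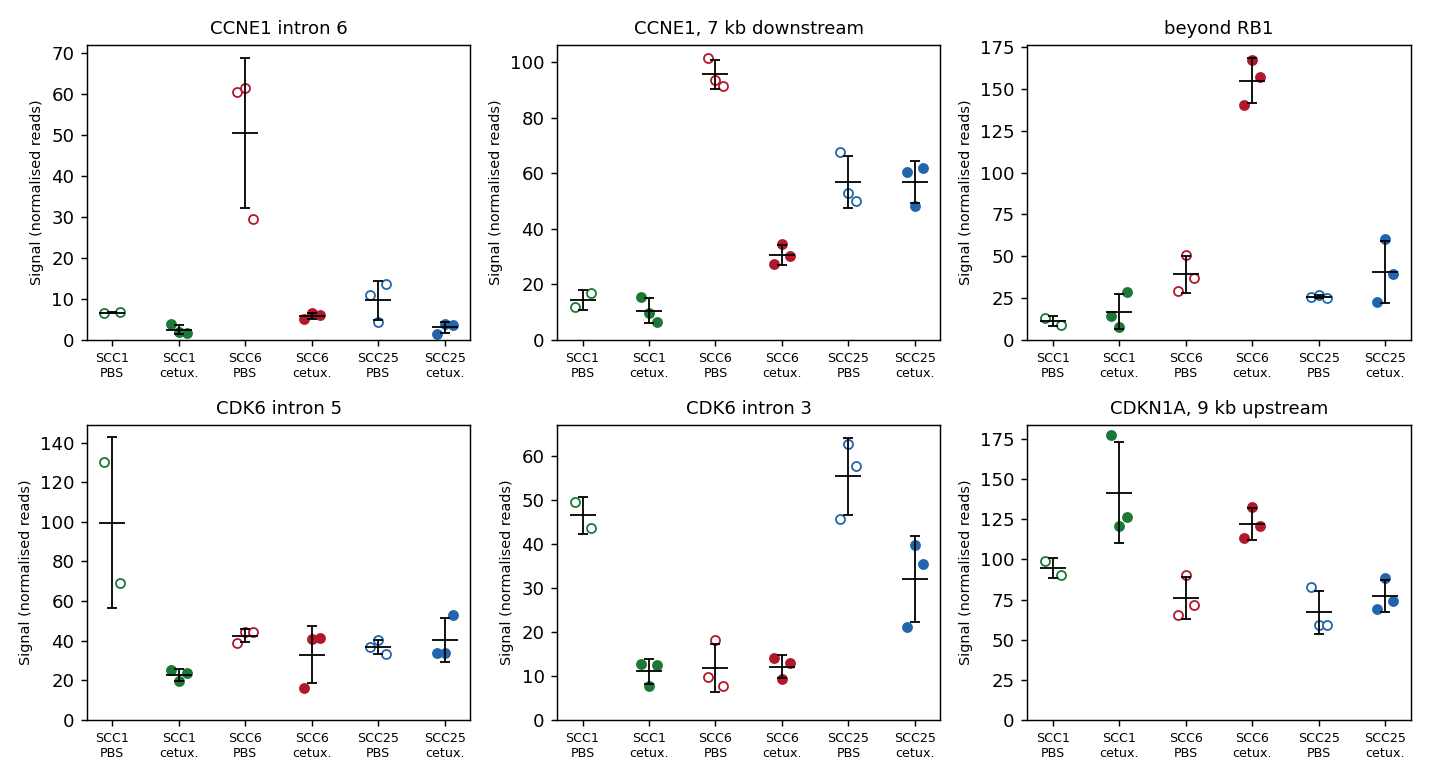
Signal (normalised reads, linear axis from 0) at 6 regions with called changes, 1 point per library, for untreated (PBS) and cetuximab-treated SCC1, SCC6 and SCC25. CCNE1 elements fall in SCC6, CDK6 elements fall in SCC1, and the region beyond RB1 and the region upstream of CDKN1A rise in SCC6.

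RB1 (chr13:48877880-49173572) had a called change at its strongest promoter region, the only 1 of 9 such regions called in any line. In SCC6, 7 of these 9 regions were tested. Among all promoter regions, 10.9% were called lower and 3.77% higher in SCC6. The RB1 promoter region (chr13:48877263-48878278, exon 1) fell in SCC6 from 196, 187 and 232 to 142, 132 and 145, a change of -0.54 ± 0.13 (adjusted p = 9.56e-04). In SCC1 it measured 178 and 176 untreated and 174, 138 and 199 treated (-0.07 ± 0.21, adjusted p = 0.876), and in SCC25 117, 113 and 89.9 untreated and 118, 121 and 122 treated (0.18 ± 0.16, adjusted p = 0.66). The difference between lines was not called (adjusted p = 0.052), and it was called under 6 of the alternative settings that kept all libraries. An intron 17 region, chr13:48975005-48975320, rose in SCC6 from 53.2, 74.3 and 65.3 to 111, 99.3 and 88.6 (0.63 ± 0.19, adjusted p = 0.0094).

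The largest rise of any called member region was beyond RB1. The region chr13:49174810-49175482 rose in SCC6 from 29.0, 50.9 and 37.0 to 140, 167 and 157 (2.00 ± 0.20, adjusted p = 3.94e-11). It lies 1.238 kb after the annotated RB1 body, which includes long isoforms, and 118.784 kb after the end of the main RB1 transcript. SCC1 measured 13.0 and 8.93 untreated and 13.96, 7.79 and 28.2 treated (0.41 ± 0.63, adjusted p = 0.755), and SCC25 25.6, 26.7 and 24.6 untreated and 22.5, 59.9 and 39.0 treated (0.53 ± 0.31, adjusted p = 0.475). The treated and untreated groups overlapped in these lines, and the difference between lines was not called (adjusted p = 0.058). The central 300 bases, chr13:49174996-49175295 on the plus strand, held 2 RUNX matches.
Element beyond RB1: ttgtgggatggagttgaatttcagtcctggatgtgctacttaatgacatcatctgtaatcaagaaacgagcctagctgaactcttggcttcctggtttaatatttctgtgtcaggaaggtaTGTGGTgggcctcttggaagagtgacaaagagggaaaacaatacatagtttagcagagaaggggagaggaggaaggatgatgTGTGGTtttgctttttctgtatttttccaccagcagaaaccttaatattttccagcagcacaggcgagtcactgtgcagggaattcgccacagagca

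Signal within the RB1 window also differed between the untreated lines. Regions chr13:49081191-49081507 and chr13:49082234-49082478, both beyond the end of the main RB1 transcript, were open in SCC25 (56.1, 52.6 and 57.7, and 76.5, 77.9 and 64.5) and near the floor in SCC6 (0.669 to 1.21, and 1.09 to 3.35). SCC25 exceeded SCC1 there by 3.86 ± 0.41 (adjusted p = 2.33e-06) and 2.95 ± 0.46 (adjusted p = 8.58e-05). Regions in introns 6 and 17 and beyond the main transcript (starting at 48924341, 48958136 and 49157974) were instead seen in SCC6 alone. The RB1 window holds members of the class of narrow SCC6-only regions described below. At the RB1 promoter untreated SCC25 was lower than SCC6 by 0.94 ± 0.13 (adjusted p = 1.38e-05) and than SCC1 by 0.74 ± 0.15 (adjusted p = 7.41e-04), while SCC6 and SCC1 did not differ beyond their spread (0.20 ± 0.15, adjusted p = 0.258). The median of 61 tested regions within 1 Mb outside the RB1 window was -0.51 for SCC25 against SCC1 and -0.36 against SCC6. At 1 intron 23 region, chr13:49039725-49040338, the peak lists and the table disagreed. The lists held a peak there in 11 of 17 libraries, at 1.92 to 6.84-fold enrichment, but the table held 1 to 4 reads in every library, so the region was not tested.

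Counted over all members, calls with cetuximab were few in SCC1, more in SCC6 and none in SCC25. In SCC1, 1 of 64 tested member regions was called higher and 3 lower, against 4.57% higher and 6.56% lower among all tested regions. In SCC6, 7 of 55 were higher and 4 lower, against 16.9% and 10.6%. In SCC25, 0 of 64 were called by limma in either direction, against 0.0405% and 0.275%, with 5 at an unadjusted p under 0.05, and edgeR and DESeq2 on the recovered reads also called 0. The median log2 change of the members was 0.10, 0.05 and 0.04 in SCC1, SCC6 and SCC25, against -0.09, 0.11 and -0.08 over all regions. An effect that differed between lines was called at 3 of 64 member regions (13.2% of all regions), all named above. The split of all regions depends on the scaling. Other scalings did not change the sign of any called member region among those named by rule. Centring on the median of all regions moved the SCC1 calls from 3949 higher and 5664 lower to 6852 and 3647 and the median from -0.09 to 0.10. In SCC6 it moved them from 14622 and 9152 to 10394 and 15782, and scaling on regions with no peak moved them to 26392 and 5260 and the median from 0.11 to 0.33. In SCC25 the same scaling moved them from 35 and 237 to 106 and 13491 and the median from -0.08 to -0.37.

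**Figure D5:**
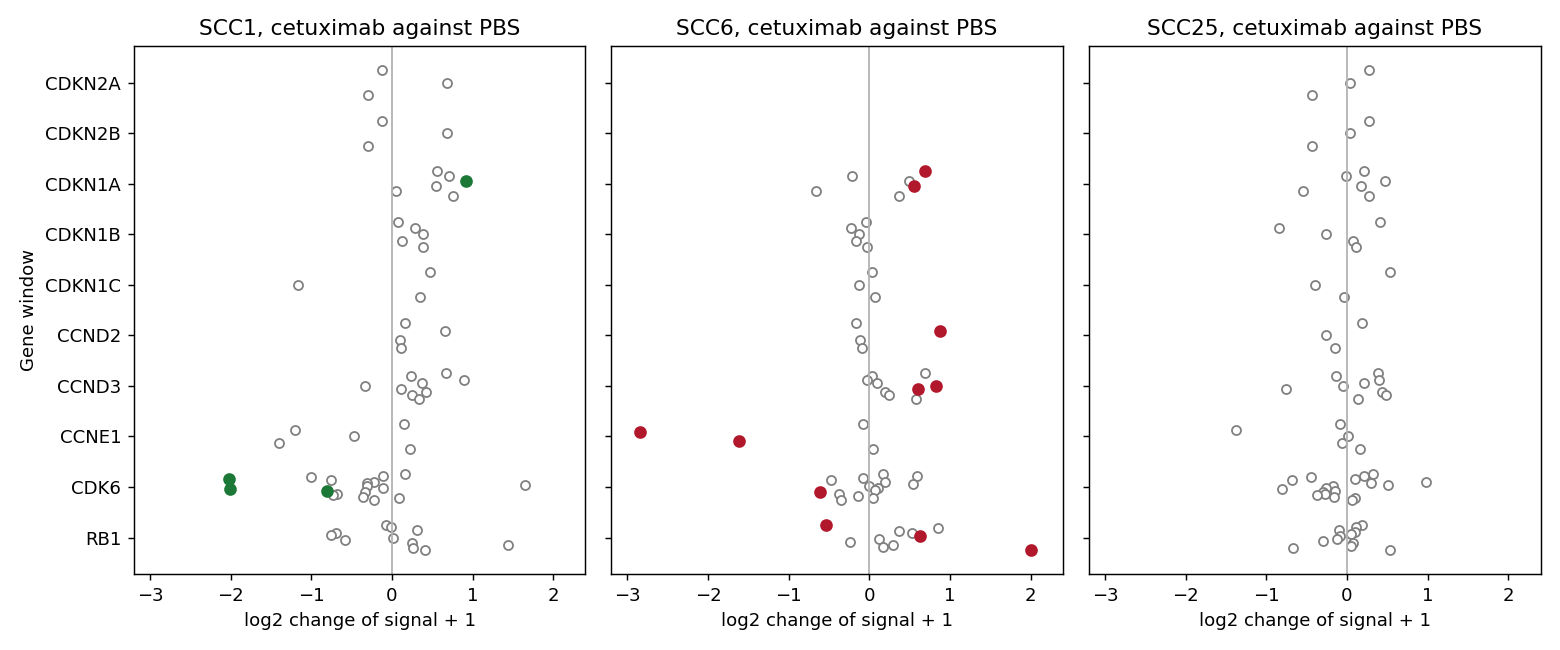
Log2 change of signal + 1 with cetuximab for every tested member region, by gene window, in SCC1, SCC6 and SCC25, with called regions marked. The called points lie at CDK6 and CDKN1A in SCC1 and at CDKN1A, CCND2, CCND3, CCNE1, CDK6 and RB1 in SCC6, and no point is called in SCC25.

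Called changes were counted at promoter and other regions. Promoter regions in the windows include those of neighbouring genes. In SCC6, 1 of 20 promoter regions in the windows and 10 of 35 other regions were called, and in SCC1 0 of 24 and 4 of 40. Over all regions the called shares were 14.6% of promoter and 30.1% of other regions in SCC6, and 15.2% and 10.3% in SCC1. Of the 10 genes, window sums were called for 6 changes with cetuximab, named above for CDKN1A, CCND3 and CDK6. The others were in SCC6, where CCNE1 fell by 0.22 ± 0.08 (adjusted p = 0.0162) and RB1 rose by 0.20 ± 0.07 (adjusted p = 0.0249), although the RB1 promoter fell. Each of these was lost without some single SCC6 library and with the GC trend removed, where the changes were -0.11 (adjusted p = 0.209) and 0.15 (adjusted p = 0.0585). The mean RB1 sum in SCC6 was 708 untreated and 816 with cetuximab. That sum includes the strongly rising region beyond the main RB1 transcript, and a sum without this region was not tested. Among all gene windows, 21.5% rose and 6% fell in SCC1, 13.3% rose and 15.8% fell in SCC6, and 0.0774% rose and 0.556% fell in SCC25.

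Differences between untreated lines were far more frequent than changes with cetuximab. Of 63 tested member regions, 35 differed in SCC6 against SCC1 (61.2% of all regions), 33 in SCC25 against SCC1 (51.3%) and 39 in SCC25 against SCC6 (68.7%), shares near those of the whole table. In CCND2, CCND3 and RB1, 5 member regions had at least 15 reads in every SCC6 library and at most 8 elsewhere. All 5 were 199 to 201 bases wide. The same held for 9835 regions of the table, of which 9006 were within 3 bases of 200, and these had a mean GC content of 32.4% against 47.1% over all regions. The part of this width and base content in the SCC6 values was not tested.

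Other G1 genes were read from a list of 20, which includes CDK4, CDK2, the E2F and RB families and their regulators. Of the 20, 19 had a promoter region, CCND1 being the exception. In SCC1, 4 of 19 promoter regions were higher with cetuximab and 0 lower, against 13.6% and 1.6% of all promoter regions. Among them were RBL1, the RB relative p107 (0.99 ± 0.25, adjusted p = 0.00261), CDC25A, a phosphatase that activates CDK2 (0.69 ± 0.22, adjusted p = 0.0264), and CKS1B, a CDK subunit that shares its promoter with SHC1 (0.88 ± 0.17, adjusted p = 2.78e-05). In SCC6, 4 were lower and 0 higher, against 10.9% and 3.77% of all promoter regions. They were E2F1 (-0.32 ± 0.12, adjusted p = 0.042), E2F3 (-0.22 ± 0.08, adjusted p = 0.0467), the ubiquitin ligase subunit for cyclin E, FBXW7 (-0.53 ± 0.14, adjusted p = 0.00333), and the ubiquitin ligase MDM2 (-0.59 ± 0.18, adjusted p = 0.0113). Scaling on regions without peaks left 0 lower and gave 2 higher in SCC6, so the SCC6 direction of this list depends on the scaling. Centring gave 8 higher in SCC1 and 10 lower in SCC6. The E2F1 and E2F3 calls were lost with quantile normalisation, with the GC trend removed, with no filter on low signal and with all libraries in 1 fit, and the CDC25A call with scaling on regions without peaks, the GC trend removed and no filter. In SCC25, 0 of 19 were called by limma, edgeR or DESeq2, against 0.0276% higher and 0.0276% lower among all promoter regions, while scaling on regions without peaks gave 3 lower. The effect differed between lines at 5 of 19 (13.5% of all promoter regions), among them E2F1, RBL1, CKS1B and MDM2, and at 2 with the GC trend removed and 10 with centring.

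As a description of likeness, the promoter region of another gene with the closest pattern over the 17 libraries was found among 13452 genes. It was RAB38 for CDKN2B (Pearson r 0.997), BANK1 for CDKN2A (0.995), SOX30 for CDK6 (0.964), YWHAG for CCND3 (0.958), MACROD2 for CCNE1 (0.950), SMAP2 for CDKN1A (0.948), ACTR3B for RB1 (0.935), AGPAT2 for CDKN1C (0.825) and FHDC1 for CDKN1B (0.730). Libraries of a line share that line's level, so these values rest mainly on the 3 lines.

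The labelled cell type was checked against 14 markers. All 6 squamous epithelial markers (KRT5, KRT14, TP63, CDH1, EPCAM and SFN) had a promoter region, while those of blood and endothelial cells (PTPRC, CD3E, SPI1, PECAM1 and CDH5) and PDGFRB had none in the table. The fibroblast genes COL1A1 and COL1A2 had one, so having a region did not set squamous from fibroblast markers. COL1A1 held a peak in 3 of 5 SCC1, 6 of 6 SCC6 and 5 of 6 SCC25 libraries, and COL1A2 in 2 of 5, 0 of 6 and 3 of 6. Among the squamous markers, TP63 held a peak in 0 of 5, 4 of 6 and 2 of 6, and EPCAM in 5 of 5, 6 of 6 and 5 of 6. KRT14, a basal keratin, was near the floor in SCC6 (1.01 to 2.79) and at 35.1 to 78.7 in SCC1 and 30.1 to 39.9 in SCC25.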

How the data were processed

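ATAC-seq was read in 17 libraries of SCC1, SCC6 and SCC25. Per the labels and the study's methods, the authors trimmed reads with Trim Galore 0.5.0, aligned them to hg19 with Bowtie2 2.3.2, removed duplicates and mitochondrial reads with Picard 2.18 and SAMtools 1.9, called broad peaks per library with MACS2 and built a consensus table with DiffBind. The deposited table holds signal, reads per region scaled per library. Values divided by a step particular to the library gave whole reads in 100% of cells (within 0.001), with 0 set to 1 read, so reads were recovered for alternative tests. The deposited peak lists hold fold enrichment (a ratio) and -log10 p and q values. Coordinates are printed as the table gives them, with starts that equal the 0-based starts of the peak lists, and sequences were read 1-based from GRCh37.

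Members were assigned with GENCODE 44 lifted to GRCh37. Tests were limma 3.58.1 (trend, robust, two-sided) on log2(signal + 1), leaving out the lowest 25% of regions by mean, per line for cetuximab against PBS, over all lines for the difference of effects, and over PBS libraries for lines. Sums over the regions of a gene window were tested the same way. R 4.3.3, edgeR 4.0.16, DESeq2 1.42.0 and Python 3.11.15 were used, and the fits were tested on simulated data. Replicates differed by more than sampling noise, so none was merged. Floors in reads cover counting error only. Depth sets the precision: SCC1 libraries held at most 4171650 reads in regions, SCC6 libraries up to 15017130.

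Named regions were the strongest promoter region (within 1 kb of a start) of each gene, up to 4 higher and 4 lower called regions per line, 4 with the smallest p of the difference between lines, the 3 largest differences per pair of untreated lines and all regions at CDKN2A and CDKN2B. Further regions of CCND2, CCND3, CDK6 and RB1 were named after their values were seen. The values of 1 gene of the G1 list and 1 sequence are not reported here. The members and lists were chosen with earlier results of these data known. Alternatives were other scalings, a GC correction, pseudocounts of 0.5 and 5, other filters, edgeR, DESeq2, a replicate block, 1 fit over all libraries, other window sizes and leaving out each library.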

Additional observations from a re-analysis of the deposited data

Results flagged for a closer look

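The effect of cetuximab differed between the lines at 3 member regions, by the limma test of the difference itself. At the CDK6 intron 5 region starting at 92264331 the adjusted p was 0.00779, with changes of -2.02 in SCC1, -0.48 in SCC6 and 0.10 in SCC25. At the region downstream of CCNE1 starting at 30322057 it was 0.019, with changes of -0.47, -1.62 and 0.01. At the CDK6 intron 3 region starting at 92376344 it was 0.0292, with changes of -2.01, 0.10 and -0.80. The first was no longer called without untreated SCC1 replicate 1 (adjusted p = 0.107), the second without untreated or cetuximab SCC6 replicate 1 (0.0502 and 0.0522). The third was lost without either untreated SCC1 library (0.103 and 0.0662), without 4 of the 6 SCC6 libraries in turn and under 3 other settings.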

How the results depend on the processing

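No called member region or window sum changed sign, in 908 values over 51 results, and 848 of these were still called. Of 59 results that were not called, 98 of 1020 values changed sign, none of them with a call. In SCC1 the count of higher member regions (1) was 5 when centred on the median of all regions, 3 with quantile normalisation, 2 with a pseudocount of 5, 5 with edgeR, 3 with all libraries in 1 fit and 0 at a threshold of 0.01. Dropping single libraries, the counts ran from 0 to 5 higher and 0 to 3 lower, with 0 higher without untreated replicate 1 or 3 or cetuximab replicate 3, 5 higher without cetuximab replicate 2, and 0 or 1 lower without untreated replicate 1 or 3. Windows of 50 kb gave 5 lower in SCC1. Scaling on regions with no peak gave 16 higher in SCC6 (7 in the report) and 5 lower in SCC25 (0). The number of regions whose effect differed between lines (3) was 6 centred, 7 with a pseudocount of 5, 5 with the lowest 50% left out, 7 with edgeR, 6 with DESeq2, 1 at 0.01, 5 with 50 kb and 1 to 7 leaving out 1 library, with 1 without untreated or cetuximab SCC6 replicate 1. Called window sums (6) were 3 with all libraries in 1 fit. Leaving out 1 library gave 6 to 9 higher and 4 lower in SCC6, none in SCC25, and 31 to 37, 24 to 35 and 34 to 41 different regions between untreated SCC6 and SCC1, SCC25 and SCC1, and SCC25 and SCC6. Peaks at promoter regions (101) fell to 33 at a -log10 q of at least 5 and to 50 where a peak covered most of the region. Scaling on regions with no peak could not be fitted for the difference between lines, nor for most window sums. Except where a setting changes the number tested, the cause was not tested. Depth limits SCC1, where a lone untreated library is assumed to vary like the other group.

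Replicate numbers did not pair the libraries, since the deviations of same-numbered libraries correlated at -0.023 to 0.038. With the number as a replicate block, SCC1 gave 5 higher and 3 lower regions, SCC6 7 and 4, SCC25 0 and 0, and 3 regions differed between lines. Between untreated lines 35, 29 and 39 regions differed, and 7 window sums were called.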
